A study of Homo sapiens with 6 samples.

Results

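The genes described here are the nuclear-encoded subunits of the mitochondrial respiratory chain and ATP synthase, 95 of the 24960 genes in the count table. They were chosen by name, as protein-coding rows whose symbol begins with NDUFA, NDUFB, NDUFC, NDUFS, NDUFV, UQCR, COX4, COX5, COX6, COX7, COX8 or ATP5, or is SDHA, SDHB, SDHC, SDHD or CYC1. Complex I had 45 of them, complex II 4, complex III 10, complex IV 17 and complex V, the ATP synthase, 19. The NDUFA prefix also brought in 8 assembly factors of complex I, COX7 brought in the supercomplex factor COX7A2L, and ATP5 brought in ATP5IF1, the inhibitor of the ATP synthase. All 95 lie on nuclear chromosomes. Non-coding rows with the same prefixes (6) were left out, and the isoform genes COX6A2 and COX7A1 were not analysed here.

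RNA was sequenced from K562 cells, a human chronic myeloid leukemia line that carries the BCR::ABL fusion and is labelled with bone as its tissue. The 3 control libraries were compared with 3 libraries of cells given 2 mM hyperoside (quercetin-3-galactoside), a plant flavonol glycoside, in order to see how the compound changes gene expression. Both groups are the same unmodified line, the time of exposure before RNA extraction is not given in the sources used here, and nothing states whether replicates came from separate cultures, so p-values measure the spread between these libraries, which may be technical. The libraries were made from bulk RNA, in which fewer cells of a kind and less RNA per cell cannot be told apart.

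The respiratory chain sits in the inner mitochondrial membrane and passes electrons from NADH (complex I) and succinate (complex II) through ubiquinone, complex III and cytochrome c to oxygen at complex IV. Complexes I, III and IV pump protons, and complex V uses the gradient to make ATP. Most subunits are encoded in the nucleus and imported, whereas the central hydrophobic subunits of complexes I, III, IV and V are encoded by mitochondrial DNA, so each of these complexes needs products of both genomes. Complex II is wholly nuclear-encoded and is also an enzyme of the tricarboxylic acid cycle.

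Gene counts summed to between 35613283 and 36754725 per library, and 92 of the 95 genes had enough counts to be tested. All 10 erythroid markers checked for K562, among them GATA1, KLF1 and the embryonic and fetal globins, were detected in every library, and 3 of them (EPOR, KLF1, LMO2) were higher and 4 (among them HBG2, HBG1 and HBE1) lower with hyperoside. Of markers of T and B cells, monocytes, fibroblasts and epithelium, MS4A1, CD2 and CD14 were at or near 0 in every library, while CD3D, LYZ and EPCAM stood at 28.3 to 82.2 CPM (counts scaled to library size) in all libraries. Of the 9 such markers tested, CD3D, LYZ and CSF1R were called higher and COL1A1 lower, and the part of these and the erythroid markers in the results was not tested. Control replicate 1 stood apart. Chi-square per degree of freedom, a measure of how far a pair of libraries lies beyond counting error, came to 20.3 and 23.1 for its pairs with the other control libraries and to 6.34 for the pair of those. It was the highest control for 76 of the 92 tested genes of the set (82.6%) but for 42.1% of all tested genes. Calls of the set that changed without it are named below.

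Most genes of the set moved little, and those that passed the test were mainly lower. With edgeR's quasi-likelihood test, adjusted by Benjamini-Hochberg over 15095 genes, 18 of the 92 were lower with hyperoside and 3 were higher, which is 22.8% called, while 45.3% of all tested genes were called, 22.1% higher and 23.2% lower. The higher genes were COX5B, NDUFAF6 and ATP5PB. The median log2 fold change (hyperoside minus control) was -0.13, beside 0.003 over all tested genes, with 69 genes below 0 and 23 above. COX6B2 alone was also past a fold change of 2, and it was lower. Among all tested genes 10.2% passed that stricter rule, 6.43% higher and 3.76% lower. The libraries of the 2 groups did not overlap for 27 genes that were lower and 7 that were higher, 34 in all, where 54.4% of all tested genes had groups that did not overlap.

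The split between higher and lower calls moved with the scaling and with control replicate 1. Scaling by library totals alone gave 7 higher and 15 lower, limma-trend on log2(FPKM + 1) gave 8 higher and 17 lower, and leaving out control replicate 1 gave 11 higher and 17 lower. A further 4 complex I genes, NDUFB1, NDUFB2, NDUFB9 and NDUFS3, were called higher under all 3 of these settings. Without control replicate 3 the count of lower genes was 30. Of the set 30.4% was called without control replicate 1 and 34.8% without control replicate 3, beside 46.1% and 41.2% of all tested genes. The median log2 fold change of the set stayed below 0 in each of these settings, between -0.16 without control replicate 3 and -0.05 without control replicate 1. Over all tested genes it was 0.053 under library totals alone and 0.027 with limma-trend on log2(FPKM + 1). Without control replicate 1 it was 0.011 over all tested genes, and without control replicate 3 it was 0.005. Genes of the set are short (median 1315 bases, against 3779 over all tested genes), and among all tested genes of up to 1000 bases the median log2 fold change was -0.11, with 9.71% called higher and 23.5% lower. Of the 35 genes of the set in that length range 1 was higher and 11 were lower. With a correction for the trend of length in each library 30 genes of the set were called (32.6%), 6 of them higher. Under that correction 47.2% of all tested genes were called, and the median log2 fold change over all of them was -0.055. The medians of complexes I, II, III, IV and V were then -0.107, -0.058, -0.18, -0.12 and -0.043. The part of gene length in the shift of the set was not tested.

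**Figure D1:**
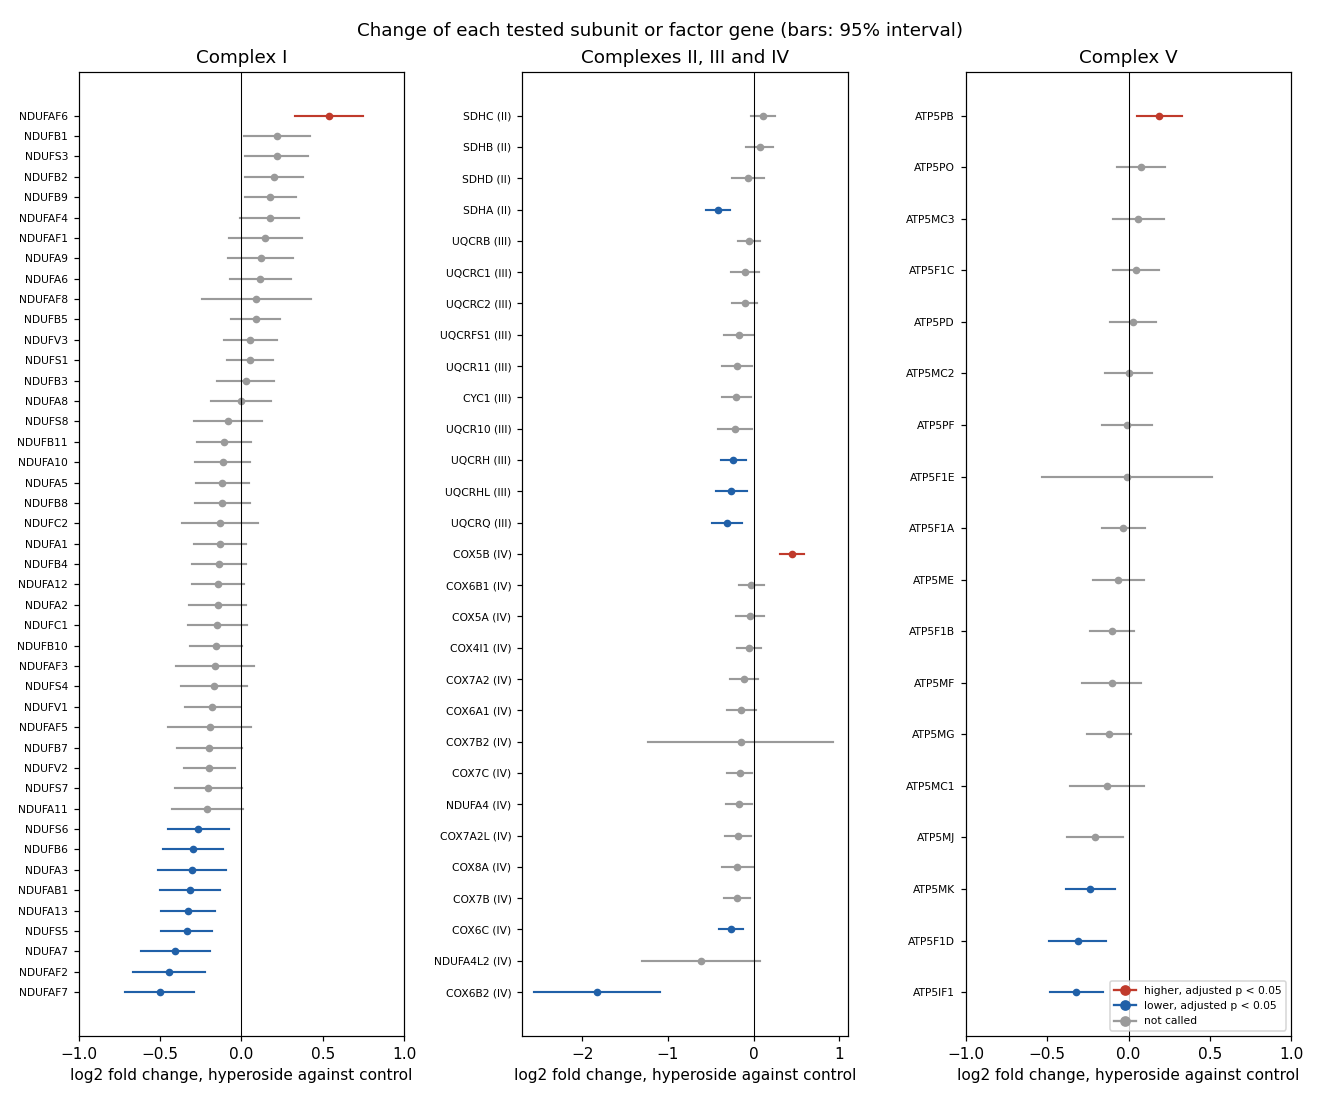
Log2 fold change (hyperoside minus control) of the tested genes, sorted within each complex, with the approximate 95% interval as a bar. The figure leaves out 1 gene not called, and red and blue mark genes called higher (3) and lower (18). Most points lie between -0.5 and 0.5, and COX6B2 at -1.83 is the only gene past a fold change of 2.

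For each gene the normalized CPM in a library was divided by the mean of the control libraries, and the median over the set was taken on the log2 scale. It was 0.13, -0.05 and -0.10 in control replicates 1, 2 and 3, and -0.16, -0.09 and -0.10 in hyperoside replicates 1, 2 and 3. Over the whole set control replicates 2 and 3 thus lay close to the hyperoside libraries and control replicate 1 above them all. In complex II control replicate 1 had a median of 0.002 and hyperoside replicate 1 the highest, 0.06. The set took 1.18% ± 0.06 of all gene counts in controls and 1.15% ± 0.02 with hyperoside (SD, n = 3).

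**Figure D2:**
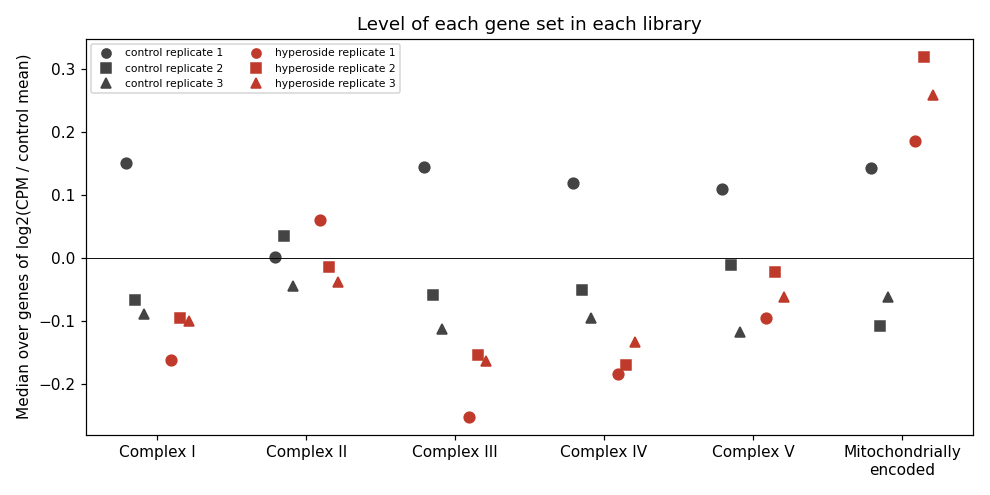
Median over the genes of each complex, and over the 13 mitochondrially encoded subunits, of log2(CPM / control mean) in each library; grey is control, red hyperoside, and the symbol gives the replicate. Control replicate 1 is the highest library in complexes I, III, IV and V, while the hyperoside libraries are the 3 highest for the mitochondrially encoded genes.

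Levels per length spanned 3 orders of magnitude within the set. In the authors' FPKM values the control means of complex I genes ran from 1.83 (NDUFAF5) to 355 FPKM (NDUFS5), with a median of 42.3. Complex II had a median of 55.9 FPKM, from 8.63 (SDHC) to 106 (SDHB), and complex III one of 74.5 FPKM, from 28.2 (UQCRFS1) to 876 (UQCRH). Complex IV and complex V had medians of 136 and 108 FPKM, with COX7C at 459 and ATP5F1B at 696 FPKM at the top. FPKM divides by the summed length of a gene's annotated exons, which for SDHC was 13442 bases, so genes with long or many exons read low. ATP5F1E, at 3610 bases, also had few counts, 66 to 134 in each library (2.94 CPM in controls).

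**Figure D3:**
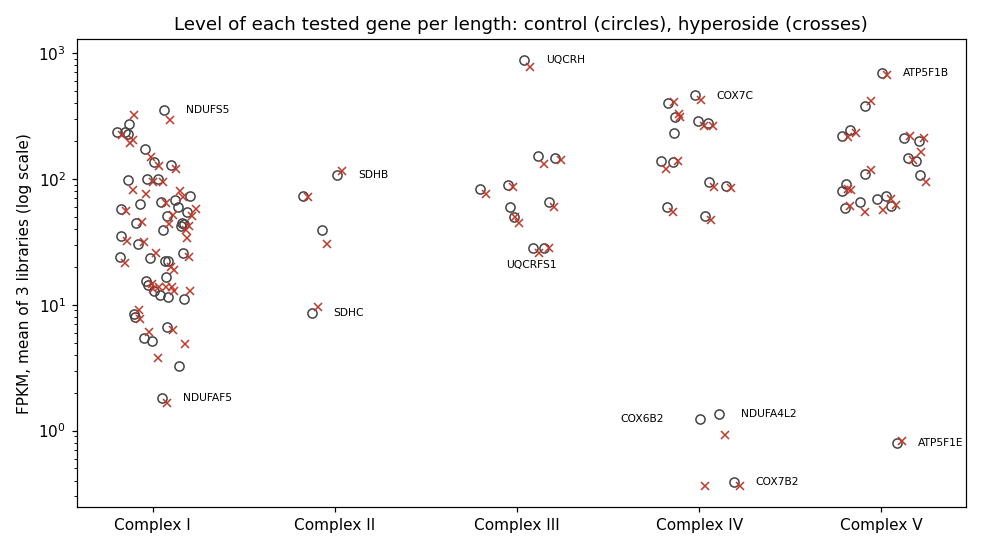
Mean FPKM of the 3 control libraries (circles) and the 3 hyperoside libraries (crosses) for each tested gene, on a log axis. Nearly all genes lie between 1.83 and 876 FPKM in the control group, and COX7B2, ATP5F1E, COX6B2 and NDUFA4L2 lie below that.

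Recognition sequences of transcription factors known to bind respiratory gene promoters were searched on both strands of the 300-base windows around annotated start sites (RefSeq, GRCh38.p14). Of the 95 genes 78 matched, with 97 windows. The motif of nuclear respiratory factor 1 (NRF1) was present in 18.6% of them and in 5.78% of all 35116 windows, the ETS motif that GABP reads (CCGGAAG) in 25.8% and 10.3%, and the YY1 motif (GCCATNTT) in 32.0% and 6.58%. Among the 14 windows of genes called lower the shares were 14.3%, 28.6% and 21.4%, and among the 80 windows of genes not called 18.8%, 25.0% and 33.8%. A match describes letters and no more. The promoters of 4 genes that the results below turn on are shown, with matches in capitals: SDHA (chr5:218070-218369, plus strand) holds 4 matches to the nuclear respiratory factor 1 motif, COX5B (chr2:97645812-97646111, plus strand) 2 ETS matches, ATP5PB (chr1:111449214-111449513, plus strand) 1 YY1 match and COX6B2 (chr19:55354670-55354969, minus strand) none.
SDHA: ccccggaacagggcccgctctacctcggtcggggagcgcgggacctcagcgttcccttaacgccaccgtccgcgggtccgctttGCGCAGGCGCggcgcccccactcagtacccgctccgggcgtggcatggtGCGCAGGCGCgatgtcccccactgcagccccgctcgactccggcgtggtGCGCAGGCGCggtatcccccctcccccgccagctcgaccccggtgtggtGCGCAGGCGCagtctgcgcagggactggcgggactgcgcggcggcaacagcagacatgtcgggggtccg
COX5B: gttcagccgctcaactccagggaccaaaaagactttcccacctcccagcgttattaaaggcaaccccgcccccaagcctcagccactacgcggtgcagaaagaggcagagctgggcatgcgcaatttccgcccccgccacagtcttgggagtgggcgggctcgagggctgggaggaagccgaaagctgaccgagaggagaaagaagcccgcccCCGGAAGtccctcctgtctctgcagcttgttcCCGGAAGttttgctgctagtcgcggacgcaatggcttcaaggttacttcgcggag
ATP5PB: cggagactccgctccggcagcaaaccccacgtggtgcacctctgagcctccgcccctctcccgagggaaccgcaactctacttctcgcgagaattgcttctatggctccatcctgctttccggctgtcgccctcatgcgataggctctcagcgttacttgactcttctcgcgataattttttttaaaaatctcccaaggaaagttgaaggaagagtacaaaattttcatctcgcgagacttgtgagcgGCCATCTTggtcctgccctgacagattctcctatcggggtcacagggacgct
COX6B2: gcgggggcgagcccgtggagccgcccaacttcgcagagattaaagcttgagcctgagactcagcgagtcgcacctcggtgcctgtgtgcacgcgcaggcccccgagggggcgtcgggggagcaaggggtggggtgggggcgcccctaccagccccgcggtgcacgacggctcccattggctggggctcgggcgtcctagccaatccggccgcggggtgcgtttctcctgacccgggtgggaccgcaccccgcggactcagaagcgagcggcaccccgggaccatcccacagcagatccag

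In complex I, the NADH dehydrogenase, 9 of 45 genes were lower and 1 was higher, 22.2% called beside 45.3% of all tested genes. The median log2 fold change of the complex was -0.13, and -0.05 without control replicate 1. None of the 7 core subunits, which hold the flavin and the iron-sulfur clusters, was called. Of the 30 accessory subunits 7 were lower (23.3%, beside 23.2% lower among all tested genes) and none higher, and the difference between core and accessory subunits was not tested. Among the 8 assembly factors 2 were lower and 1 higher, 37.5% called beside 45.3% of all tested genes. The core subunits NDUFV1 and NDUFV2, at the NADH-binding tip, had log2 fold changes of -0.18 (SE 0.09) and -0.20 (SE 0.08), and NDUFS1, which carries most of the clusters there, 0.05 (SE 0.07). NDUFS7 and NDUFS8 of the ubiquinone-binding module had values of -0.20 (SE 0.10) and -0.08 (SE 0.11). Without control replicate 3 the core subunits NDUFV1, NDUFV2 and NDUFS7 were called lower. NDUFV2 was also called lower with DESeq2 and with no filter on low counts, and NDUFS7 with the correction for length.

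NDUFS3, also of the ubiquinone-binding module, showed how much a call could rest on 1 control library. Its normalized CPM was 63.7, 51.8 and 48.6 in the control libraries and 59.8, 66.4 and 64.5 in the hyperoside libraries, so that control replicate 1 lay among the hyperoside values. The log2 fold change was 0.22 (SE 0.10, adjusted p = 0.081 with edgeR's quasi-likelihood test), and it was called higher without control replicate 1 and under 5 other alternatives.

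The 3 assembly factors called had the largest changes of complex I. NDUFAF7, a methyltransferase of the mitochondrial matrix, had 22.7, 23.9 and 21.8 CPM in the control libraries and 17.9, 15.5 and 14.95 in the hyperoside libraries. All hyperoside values were below all controls, at 70.6% of the control level (log2 fold change -0.50, SE 0.11, edgeR adjusted p = 0.00097). NDUFAF2, which acts late in assembly, had 32.9, 25.0 and 27.8 CPM in controls and 19.3, 22.6 and 21.0 with hyperoside. The groups did not overlap, and its log2 fold change was -0.45 (SE 0.11, edgeR adjusted p = 0.0035). NDUFAF6, which acts early in assembly, went the other way, with 14.2, 13.6 and 15.2 CPM in controls and 20.4, 21.5 and 20.4 with hyperoside. It stood at 145% of control (log2 fold change 0.54, SE 0.11, edgeR adjusted p = 0.00046), and all 3 factors kept their call under all 15 alternatives.

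The accessory subunits that were lower lost less. NDUFS5, an accessory subunit with a high level per length, had 201, 172 and 165 CPM in controls and 135, 147 and 143 with hyperoside, with no overlap (log2 fold change -0.34, SE 0.08, edgeR adjusted p = 0.0025). The other 6 were NDUFA7, NDUFA13, NDUFAB1 (the mitochondrial acyl carrier protein), NDUFA3, NDUFB6 and NDUFS6, with log2 fold changes from -0.41 (NDUFA7) to -0.26 (NDUFS6). NDUFS6 lost its call without control replicate 1 or any hyperoside replicate. It also lost it with library totals alone, limma-trend on FPKM, a block for the replicate number and the correction for length. NDUFA3 lost its call without control replicate 1, without hyperoside replicate 2 or 3, and with library totals alone. NDUFAB1 lost it without hyperoside replicate 1 or 3, and NDUFB6 without hyperoside replicate 3. Without control replicate 1, NDUFA6 and NDUFA9 were called higher and NDUFA5 lower, beside NDUFB1, NDUFB2, NDUFB9 and NDUFS3 named above. Of the genes not called, NDUFB1, NDUFB2 and the assembly factor NDUFAF4 had every hyperoside library above every control, and NDUFA12, NDUFB7 and NDUFC1 every one below. The remaining accessory subunits that were not called were NDUFA1, NDUFA2, NDUFA5, NDUFA6, NDUFA8, NDUFA9, NDUFA10, NDUFA11, NDUFB3, NDUFB4, NDUFB5, NDUFB8, NDUFB9, NDUFB10, NDUFB11, NDUFC2, NDUFS4 and NDUFV3, and the remaining assembly factors NDUFAF1, NDUFAF3, NDUFAF5 and NDUFAF8. Over all 35 complex I genes not called the log2 fold changes ran from -0.21 to 0.22.

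In complex II 1 subunit of 4 was called, 25.0% beside 45.3% of all tested genes. SDHA, the flavoprotein that oxidizes succinate, had 256, 243 and 224 CPM in the control libraries and 177, 179 and 186 CPM in the hyperoside libraries. Every hyperoside library was below every control, at 74.9% of the control level (log2 fold change -0.42, SE 0.07, edgeR adjusted p = 0.00013), and the call held under all 15 alternatives, with log2 fold changes from -0.49 to -0.35. SDHB, the iron-sulfur subunit that accepts its electrons, had 123, 104 and 103 CPM in controls and 116, 116 and 116 with hyperoside. Control replicate 1 lay above the hyperoside libraries and the other controls below them, and the log2 fold change was 0.07 (95% interval -0.08 to 0.23). SDHC, a membrane anchor, had 111, 124 and 119 CPM in controls and 125, 128 and 129 with hyperoside, which just separated the groups without passing the test (log2 fold change 0.11, 95% interval -0.03 to 0.25). SDHD, the other anchor, had 90.1, 113 and 122 CPM in controls and 112, 101 and 98.0 with hyperoside, and the groups overlapped (log2 fold change -0.06, 95% interval -0.25 to 0.13). Without control replicate 1 SDHB was called higher and SDHD lower, and SDHA remained lower. SDHA has 3 pseudogenes by name in the annotation, SDHC 4 and SDHD 3, with which reads could be shared.

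The assembly factors of complex II are outside the naming rule of the set, and all 4 are given here although SDHAF1, SDHAF2 and SDHAF4 were chosen after their values were seen. SDHAF3, which helps to put iron-sulfur clusters into SDHB, had 42.0, 45.1 and 47.6 CPM in controls and 22.9, 24.8 and 23.4 with hyperoside (log2 fold change -0.92, SE 0.09, edgeR adjusted p = 3.3e-07). SDHAF1, with the same kind of role, and SDHAF4, which binds flavinylated SDHA, were lower too, at -0.49 (SE 0.14) and -0.78 (SE 0.15), and in each the groups did not overlap. SDHAF2, which is needed to attach the flavin to SDHA, had a log2 fold change of 0.21 (SE 0.10, edgeR adjusted p = 0.078).

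**Figure D4:**
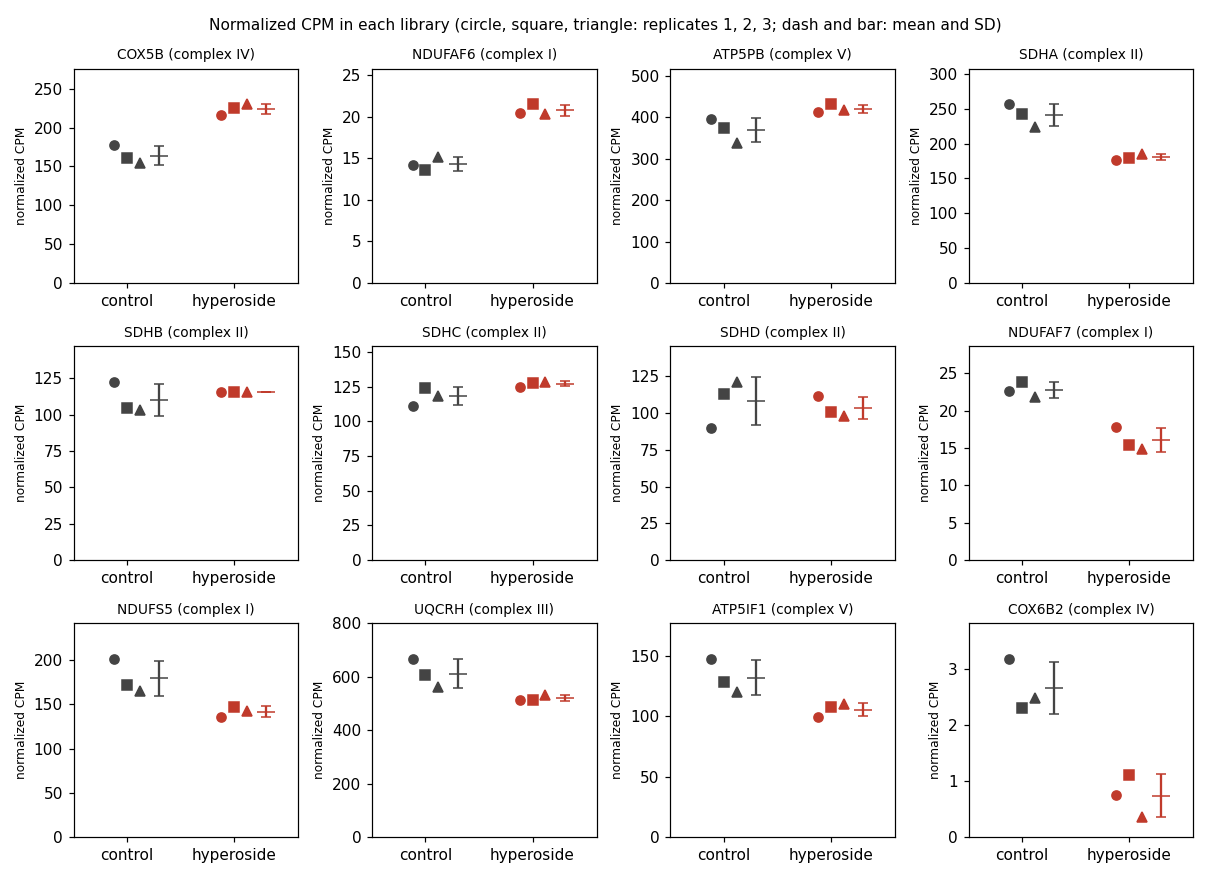
Normalized CPM of 12 genes in each of the 6 libraries, from 0, with the group mean and SD beside the points (n = 3). COX5B, NDUFAF6 and ATP5PB lie higher with hyperoside in every library, SDHA, NDUFAF7, NDUFS5, UQCRH, ATP5IF1 and COX6B2 lie lower in every library, and SDHB and SDHD overlap.

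All 10 complex III genes had a log2 fold change below 0, also under each alternative, with a median of -0.20. Of these genes 3 were called lower (30.0%, beside 23.2% lower among all tested genes). UQCRQ, a small subunit near the ubiquinone site, had 108, 90.1 and 87.3 CPM in controls and 75.0, 82.7 and 72.9 with hyperoside (log2 fold change -0.31, SE 0.09, edgeR adjusted p = 0.0090). UQCRH, the hinge protein between cytochrome c and its partner, was the gene with the highest level per length of the set, and had 667, 607 and 560.4 CPM in controls and 515, 513 and 533 with hyperoside. Neither gene's groups overlapped, and UQCRH stood at 85.0% of control (log2 fold change -0.23, SE 0.07, edgeR adjusted p = 0.013). UQCRH lost its call without hyperoside replicate 1 and UQCRQ without hyperoside replicate 3. UQCRHL, an almost identical intronless copy of UQCRH, had 47.2, 39.5 and 41.8 CPM in controls and 35.9, 34.1 and 37.2 with hyperoside (-0.26, SE 0.09). Reads of the copy and its parent may be exchanged, so UQCRHL is uncertain as a gene of its own, and it lost its call in 7 of 15 alternatives, among them the omission of control replicate 1.

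Neither catalytic subunit of complex III encoded in the nucleus was called. CYC1, cytochrome c1, had 186, 145 and 152 CPM in controls and 135, 136 and 149.7 with hyperoside (log2 fold change -0.20, SE 0.09), and UQCRFS1, the Rieske iron-sulfur protein, -0.17 (SE 0.09). In both the groups overlapped. The others not called were UQCRC1, UQCRC2, UQCRB, UQCR10 and UQCR11, and the 7 ran from -0.22 to -0.05. Leaving out control replicate 1 moved the median of the complex to -0.09, and leaving out control replicate 3 to -0.25 with 5 genes called lower.

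Complex IV, cytochrome c oxidase, held the member with the smallest adjusted p of the whole set, and it was higher. COX5B, a zinc-binding subunit on the matrix side, had 177, 161 and 154 CPM in controls and 217, 225 and 229.9 with hyperoside. All hyperoside libraries were above all controls, at 137% of the control level (log2 fold change 0.45, SE 0.07, edgeR adjusted p = 7.3e-05), and the log2 fold change stayed between 0.40 and 0.51 under the 15 alternatives. Its promoter is the one above with 2 ETS matches. COX5B has 6 pseudogenes by name, which could share reads. COX5A, the other subunit of that name but a different protein, was not called.

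COX6C, a small membrane subunit, was lower, with 134, 134 and 125 CPM in controls and 109, 111 and 107 with hyperoside (log2 fold change -0.27, SE 0.07, edgeR adjusted p = 0.0050). It has 17 pseudogenes by name. The other 9 general subunits, COX4I1, COX5A, COX6A1, COX6B1, COX7A2, COX7B, COX7C, COX8A and NDUFA4, were not called, and each had a negative log2 fold change, from -0.19 (COX7B) to -0.03 (COX6B1). Under library totals alone 3 of the 15 tested genes of the complex, and not 1, were above 0. In that setting the median over all tested genes was also higher, at 0.053. COX7B and NDUFA4 had every hyperoside library below every control and log2 fold changes of -0.19 (SE 0.08) and -0.17 (SE 0.07). COX7B was just past the threshold (edgeR adjusted p = 0.0501). Both were called lower without control replicate 3 and with the correction for length, and COX7B also with DESeq2. Without control replicate 3 the complex had 7 genes called lower in place of 2. COX7A2L, which joins complexes III and IV in supercomplexes, had -0.18 (SE 0.08) and overlapping groups.

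The isoform genes of complex IV that are known from particular tissues or conditions were near the limit of detection. COX6B2, the testis form of COX6B1, had 112, 81 and 89 raw counts in the control libraries and 28, 41 and 13 in the hyperoside libraries. Its normalized level of 2.66 ± 0.47 CPM in controls and 0.75 ± 0.38 CPM with hyperoside (SD, n = 3) did not overlap, and the log2 fold change was -1.83 (95% interval -2.56 to -1.09, edgeR adjusted p = 0.00066). On the log2(FPKM + 1) scale it was -0.72, which is under a fold change of 2. An exon of COX6B2 overlaps another gene, AC020922.1, on the same strand. COX6B1, the general form, had 199.9 CPM in controls and 196 with hyperoside. NDUFA4L2, known as a hypoxia-induced relative of NDUFA4, had 54, 76 and 54 counts in controls and 28, 52 and 44 with hyperoside (log2 fold change -0.61, SE 0.35), and COX7B2 had 10 to 16 counts in every library. COX4I2 had 1 count in 1 control library, and COX8C had 0 to 8 counts. Neither was tested.

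In complex V 3 of 18 tested genes were lower and 1 was higher, 22.2% called beside 45.3% of all tested genes. The median log2 fold change of -0.05 changed sign under library totals alone (0.003) and without control replicate 1 (0.01). Over all tested genes the medians in those settings were 0.053 and 0.011, beside 0.003 in the main fit. The catalytic head was mostly level. ATP5F1B, the beta subunit that holds the catalytic sites, had 1347, 1243 and 1153 CPM in controls and 1135, 1183 and 1168 with hyperoside (log2 fold change -0.10, 95% interval -0.24 to 0.03). ATP5F1A (alpha) and ATP5F1C (gamma) had log2 fold changes of -0.03 (SE 0.07) and 0.05 (SE 0.07). ATP5F1D, the delta subunit of the central stalk, was the F1 gene called, with 74.1, 64.5 and 60.3 CPM in controls and 50.4, 54.9 and 54.9 with hyperoside and no overlap (-0.31, SE 0.09, edgeR adjusted p = 0.0088), and it lost its call without hyperoside replicate 1. ATP5F1E (epsilon) was listed at 0.80 FPKM in controls, against 60.7 to 696 FPKM for the other F1 genes, so its value of -0.01 (SE 0.27) is uncertain.

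ATP5IF1, the inhibitor that blocks ATP hydrolysis by the enzyme, had the smallest adjusted p of complex V. It had 148, 129 and 120.1 CPM in controls and 99.3, 108 and 109.9 with hyperoside, all below all controls and at 80.0% of the control level (log2 fold change -0.32, SE 0.08, edgeR adjusted p = 0.0042). The call held under all 15 alternatives. ATP5MK, a small membrane subunit, was lower at -0.24 (SE 0.08, edgeR adjusted p = 0.019), and lost its call with the replicate block and without hyperoside replicate 1 or 2. ATP5PB, subunit b of the peripheral stalk, was higher, with 396, 374 and 338 CPM in controls and 413, 431 and 419 with hyperoside (0.19, SE 0.07, edgeR adjusted p = 0.038). Its groups were close, 7 pseudogenes are named after it, and it lost the call in 7 of 15 alternatives, among them the omission of control replicate 2 or 3 or of any hyperoside replicate. Its promoter above holds the YY1 match.

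The c-ring, the rotor in the membrane, is encoded by 3 genes that give the same mature protein, and none was called. ATP5MC3 gave 379 ± 42 CPM in controls and 395 ± 20 with hyperoside, ATP5MC2 172 ± 13 and 172 ± 5.0, and ATP5MC1 48.4 ± 8.7 and 44.2 ± 4.9 (SD, n = 3). Their log2 fold changes were 0.06, 0.00 and -0.13, within their SEs of 0.07 to 0.12 or close to them. The peripheral stalk genes ATP5PD, ATP5PF and ATP5PO and the membrane subunit genes ATP5ME, ATP5MF, ATP5MG and ATP5MJ were not called, although ATP5PO was called higher without control replicate 1, and ATP5MGL had 1 count in all libraries and was not tested. Over the 71 genes of the set that were not called, the 67 with over 10 CPM had approximate 95% intervals within -0.45 and 0.42 on the log2 scale.

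The mitochondrially encoded subunits of the same complexes moved the other way. Of the 13 genes 9 were higher, 1 lower and 3 not called, against 45.3% called among all genes, with a median log2 fold change of 0.29. Their share of all gene counts was 4.71% ± 0.37 in controls and 5.86% ± 0.29 with hyperoside (SD, n = 3). CYTB, the cytochrome b of complex III, changed most, with 1845, 1601 and 1616 CPM in controls and 3257, 3962 and 3449 with hyperoside (log2 fold change 1.08, SE 0.08, edgeR adjusted p = 9.5e-09). The 3 hyperoside libraries lay far above all controls, in the complex whose 10 nuclear genes were all below 0. ND3 of complex I was higher by 0.58 (SE 0.08), and ATP8 and ATP6 of complex V by 0.42 (SE 0.10) and 0.34 (SE 0.08).

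COX1 and COX3, core subunits of complex IV, were higher by 0.29 (SE 0.07) and 0.30 (SE 0.08), while COX2, the other core subunit, had 0.01 (SE 0.08) and was not called. ND2, ND1 and ND4L of complex I were higher by 0.29, 0.24 and 0.23, and ND2 and ND1 lost their call without control replicate 2. ND4 and ND5 were not called. ND6, which lies on the other strand of mitochondrial DNA from the rest, was called lower at -0.32 (SE 0.12, edgeR adjusted p = 0.038), with 606, 629 and 552 CPM in controls and 421, 620.0 and 392 with hyperoside. Hyperoside replicate 2 lay among the controls, the call was lost in 9 of 15 alternatives, and the use of strand in counting is not given in the sources used here. Control replicate 1 was the highest control for 11 of the 13, as it was for most nuclear genes, and without it the median of the 13 was 0.38.

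**Figure D5:**
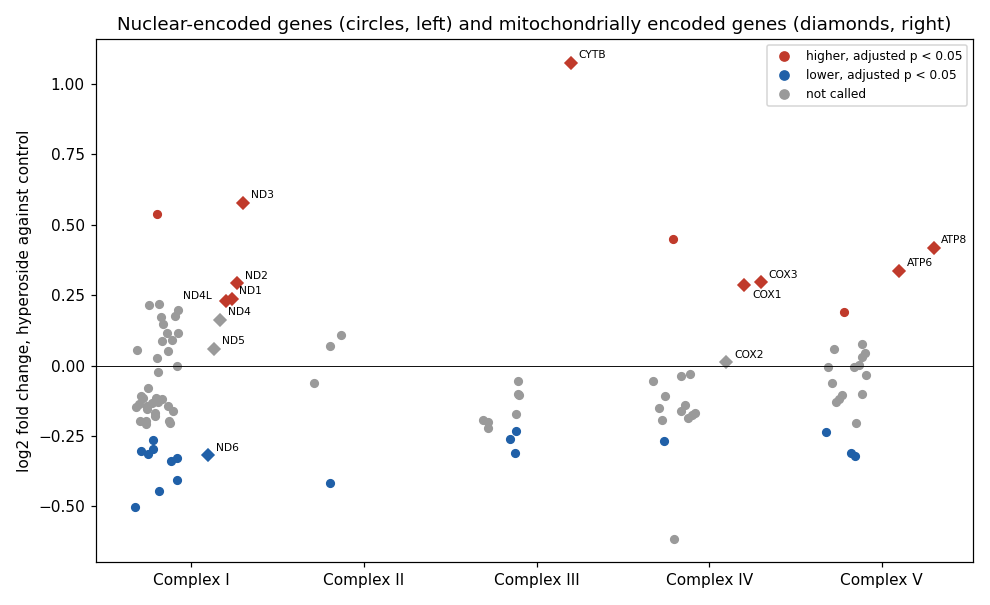
Log2 fold change (hyperoside minus control) of nuclear-encoded genes (circles) and mitochondrially encoded genes (diamonds, named) by complex; complex II has no mitochondrially encoded subunit, and COX6B2 at -1.83 is left out of the circles. In complexes III, IV and V the diamonds lie mostly above the circles, with CYTB at 1.08.

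Other genes of the same pathways were read from lists of known members. Of 50 tested assembly factors outside the naming rule 6 were higher and 11 lower, 34.0% called beside 45.3% of all tested genes, with a median log2 fold change of -0.08. The higher ones with the smallest adjusted p were COA7 (0.65, SE 0.09), a factor of complex IV, UQCC1 (0.33, SE 0.09) of complex III, and ECSIT (0.36, SE 0.10) of complex I. The lower ones were SDHAF3, described above, TMEM242 (-0.67, SE 0.09), a factor of ATP synthase assembly, and CMC2 (-0.62, SE 0.09), which is linked to complex IV. All 6 kept their call under 15 alternatives.

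Among 18 genes of the mobile electron carriers and the routes that feed them 2 were higher and 6 lower, 44.4% called beside 45.3% of all tested genes. CYCS, cytochrome c itself, had 294, 334 and 346 CPM in controls and 276, 294 and 268 with hyperoside, which overlapped, and a log2 fold change of -0.22 (SE 0.08, edgeR adjusted p = 0.025) that lost its call in 8 of 15 alternatives. COQ8A and COQ3 of ubiquinone synthesis were lower, at -0.82 (SE 0.08) and -0.50 (SE 0.11), and COQ7 and COQ5 of the same pathway higher by 0.67 (SE 0.14) and 0.38 (SE 0.10). ETFA, the flavoprotein that brings electrons from fatty acid oxidation, was lower, at -0.50 (SE 0.07). Of 16 genes of pyruvate dehydrogenase and the tricarboxylic acid cycle, 2 were higher, among them OGDH (0.60, SE 0.08), and IDH3A (-0.34, SE 0.08), FH (-0.34, SE 0.08) and MDH2 (-0.24, SE 0.08) were lower, and 11 were not called. That is 31.2% called, and MDH2 lost its call in 5 of 15 alternatives. FH acts on the fumarate that complex II makes.

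The regulators of respiratory gene transcription had 3 higher and 4 lower among 15 tested, 46.7% called beside 45.3% of all tested genes. NRF1, GABPA and TFAM, the best known of them, were not called, with log2 fold changes of -0.18 (SE 0.11), -0.18 (SE 0.13) and 0.00 (SE 0.09). GABPA had 37.0, 55.4 and 57.4 CPM in controls and 46.5, 44.1 and 41.3 with hyperoside, so control replicate 1 was the lowest library. It stayed without a call in 14 of 15 alternatives, with log2 fold changes from -0.36 to -0.07 over the 15. The partner subunits of GABPA changed in opposite directions, GABPB1 by -0.40 (SE 0.09) and GABPB2 by 1.07 (SE 0.12). POLRMT, the mitochondrial RNA polymerase, had 117, 95.5 and 95.5 CPM in controls and 69.8, 71.9 and 71.4 with hyperoside and was lower, at -0.53 (SE 0.09, edgeR adjusted p = 7.3e-05). TFB1M, an rRNA methyltransferase of mitochondria, was lower, at -0.47 (SE 0.11), and MTERF3 at -0.30 (SE 0.10). PERM1, a regulator known from muscle, had 0.20 to 0.31 CPM in controls and 1.74 to 3.13 CPM with hyperoside (log2 fold change 3.35, SE 0.42), and PPARGC1B was higher by 0.34 (SE 0.13), a call lost in 7 of 15 alternatives. PPARGC1A was at 0 counts in the controls and was not tested.

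The protein components of the mitochondrial ribosome, which translates the mitochondrially encoded subunits, served as a comparison of nuclear genes for the same organelle. Of 77 tested genes 11 were higher (14.3%) and 20 lower (26.0%), 40.3% called beside 45.3% of all tested genes, with a median log2 fold change of -0.07, beside 22.8% and -0.13 for the respiratory chain and ATP synthase genes. Control replicate 1 was the highest control for 81.8% of the ribosomal genes and for 82.6% of the respiratory genes.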

How the data were processed

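Bulk RNA-seq of K562 cells gave 3 control and 3 hyperoside libraries, grouped by their labels. RNA was extracted with TRIzol, libraries were built with a VAHTS kit and sequenced on a HiSeq instrument. The submitters' processing notes name fastp, HISAT2, HTSeq and the hg38 build, while versions, the annotation and the use of strand are not given in the sources used here. The authors deposited raw counts per gene and FPKM values, in which the counts were divided by gene length and library total (1 length per gene explained 100.0% of the 23241 genes with counts, within 0.1%). All columns of samples were used. The dose is that in the study's text.

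The count table was fitted with edgeR 4.0.16 under R 4.3.3, using filterByExpr (minimum count 10, minimum total 15), TMM (factors 0.957 to 1.03), and the quasi-likelihood test with the group as the only term, adjusted by Benjamini-Hochberg over 15095 genes and called at an adjusted p under 0.05. CPM values are TMM-normalized. SEs were derived from the fold change and the F statistic of its test, and 95% intervals from the SEs with the multiplier of a normal distribution. These intervals are approximate and somewhat narrower than the quasi-likelihood test allows. For NDUFV1 the interval was -0.35 to -0.01, while the unadjusted p of that test was 0.052. The study used the DESeq package. Alternatives were DESeq2 1.42.0, limma 3.58.1 on FPKM, other normalizations and filters, a block for the replicate number, and the omission of single libraries. The correction for gene length was chosen after seeing the data. With Python 3.11.15, pandas 2.3.3, numpy 2.4.6 and matplotlib 3.10.9 the tables and plots were made. All 95 genes matched GENCODE 29, in which 37 overlap a gene on the opposite strand, 25 overlap one on the same strand and 47 have a pseudogene of their name.

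The members, the lists of related genes and the markers were chosen with earlier results of these data known. Genes named with values are those past the fold threshold, the 3 called in each direction with the smallest adjusted p in each complex, core, F1 and complex II subunits, paralog pairs and ATP5IF1, and up to 3 called genes in each direction for each related list, with CYCS, NRF1, GABPA, TFAM and PPARGC1A. Other genes named in the report were chosen after their values were seen. Some genes that this rule takes are not reported here.

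The fit was tested on simulated counts of 14845 genes. It found 75 of the 99 genes changed 2-fold that it tested. After that rate was seen the genes were split by depth, and it found 71 of 71 with a mean over 100 counts and 4 of 29 at 100 or fewer, where genes filtered out before the test count as not found. Of genes changed 1.3-fold with a mean over 100 counts it found 24 of 74, and 6 of 105 calls were false. Most changes described here are of that small size. The simulation changed few genes, while 45.3% of all tested genes were called in the data. The Benjamini-Hochberg adjustment is stricter where few genes change, so 24 of 74 is not the rate of recovery in these data. Libraries of a group differed by more than counting error. A count of 0 allows up to 3 counts, which covers counting error only.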

Additional observations from a re-analysis of the deposited data

How the results depend on the processing

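Of the alternatives run on the named genes of the respiratory chain and ATP synthase, 613 left the call as it was, 26 gave a call that was not made before, 20 lost one, and 0 reversed a direction that was called; for the named related genes the numbers were 686, 5, 43 and none reversed. The set's median log2 fold change was between -0.16 and -0.05 with each library left out in turn. The number of its genes called higher, 3, was 7 with library totals alone, 8 with limma on log2(FPKM + 1) and 8 with log2(FPKM + 0.1), 6 with the correction for gene length and 2 to 11 with a library left out. The number called lower, 18, was 12 to 30 with a library left out.

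For complex I the number higher, 1, was 5 with library totals alone, 6 with either FPKM scale, 2 with no filter on low counts, 5 with the length correction and 1 to 7 with a library left out, and the number lower, 9, was 5 to 13. For complex II the number higher, 0, was 0 to 1 and the number lower, 1, was 1 to 2. For complex III the number lower, 3, was 1 to 5. For complex IV the number lower, 2, was 2 to 7, and 5 with the length correction. For complex V the number higher, 1, was 0 with the replicate block and with the length correction and 0 to 2 with a library left out, and the number lower, 3, was 1 to 4. The 1 mitochondrially encoded gene called lower, ND6, became 0 with library totals alone, DESeq2, either FPKM scale, a filter of at least 1 CPM in 3 libraries and the length correction, and 0 to 1 with a library left out, while the median of those genes was 0.22 to 0.38. The 1 gene past the fold threshold, COX6B2, became 0 on the log2(FPKM + 1) scale. The cause of these changes was not tested.

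Control and hyperoside libraries share replicate numbers, but the correlations of same-numbered deviations were -0.08, -0.03 and -0.03. No control library correlated best with the hyperoside library of its own number, so no pairing by number was seen. Correlations this small between 3 libraries of each group do not settle whether libraries were prepared in pairs. With the replicate block 17 genes of the set were called in place of 21 (2 higher), and the calls of ATP5MK, ATP5PB, NDUFS6 and UQCRHL were lost. Few counts limit the values of COX6B2, NDUFA4L2, COX7B2 and ATP5F1E, and why these genes had few counts was not tested. The spread between 3 libraries limits the small changes of the rest.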
